A study of Homo sapiens with 12 samples.

Results

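The tricarboxylic acid (TCA) cycle enzymes described here were 9 nuclear genes, CS, IDH2, IDH3A, IDH3B, OGDH, SUCLA2, SDHB, FH and MDH2, taken by gene name from a table of 22963 gene names. The rule used gene names alone, and all 9 were found and passed the filter on low values in every comparison. The study asked what EGR1, an immediate early zinc finger transcription factor, does to human hepatocellular carcinoma cells, and 12 RNA-seq libraries in 4 groups of 3 biological replicates were deposited. PLC/PRF5 hepatoma cells carried either the empty lentiviral vector or a lentivirus that overexpressed EGR1 from a CMV promoter. MHCC97H cells, a metastatic hepatocellular carcinoma line, were either parental or labelled EGR1 knockout. The knockout lines were single clones made with a CRISPR/Cas9 lentivirus and which of the clones was sequenced is not stated.

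The TCA cycle runs in the mitochondrial matrix. Citrate synthase joins acetyl-CoA and oxaloacetate, and the following steps release carbon dioxide, load electrons onto NADH and FADH2 for the respiratory chain, make a nucleoside triphosphate directly, and regenerate oxaloacetate. Hepatocytes draw on its intermediates for glucose, amino acid, haem and lipid synthesis. Mutations of the IDH, SDH and FH genes occur in several human tumours and make certain metabolites accumulate. Several steps are carried out by complexes of different subunits, so the mRNA of a single subunit is not a measure of flux.

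Expression was in FPKM, which divides a gene's fragments by transcript length and by the mapped fragments of its library, so that levels of different genes can be set side by side. The number of reads behind a value is unknown, and the p-values measure only the spread between these libraries. Library sums ranged from 376335 to 437652 FPKM, of which the 9 members held 0.136% ± 0.007 in vector, 0.119% ± 0.002 in EGR1, 0.111% ± 0.004 in parental and 0.124% ± 0.005 in the libraries labelled knockout (SD, n = 3 each). EGR1 itself was measured at 1.97, 1.43 and 2.03 FPKM in vector and 56.3, 50.2 and 52.2 FPKM in EGR1 cells. Against its label, EGR1 mRNA was higher in the libraries labelled knockout, at 35.2, 50.3 and 32.9 FPKM, than in the parental libraries, at 20.2, 23.1 and 21.2 FPKM (log2 change 0.83 ± 0.15 SE, adjusted p = 0.00126, limma). The paper reports that its knockout clones were checked by western blot and by DNA sequencing. RNA levels do not show whether the protein was present in these libraries. Every direction given for MHCC97H is therefore that of the libraries labelled knockout against the parental libraries. Of 9 hepatocyte markers, 8 reached a mean of 1 FPKM in both PLC/PRF5 groups, while 4 did so in parental MHCC97H and 5 in the libraries labelled knockout. Albumin was at 0.611 to 1.21 FPKM in parental MHCC97H and at 14.1 to 16.5 FPKM in the libraries labelled knockout. AFP, FGB and TF were also higher in every library labelled knockout than in the parental ones. APOB went the other way, from 1.20 to 1.40 FPKM in parental cells to 0.128 to 0.171 FPKM. For APOA1, TTR, SERPINA1 and HNF4A the groups overlapped. None of 5 fibroblast markers reached a mean of 1 FPKM. Of 5 leukocyte genes, 2 did so in both PLC/PRF5 groups, LYZ at 95.1 to 177.5 FPKM and CD68 at 29.7 to 39.3 FPKM, and CD68 alone in MHCC97H, at 26.3 to 56.2 FPKM, while the defining PTPRC and CD3E stayed under 0.1 FPKM in every library. Of 4 endothelial genes PECAM1 was at 1.47 to 6.30 FPKM over the series, and KDR was above 1 FPKM in the libraries labelled knockout. The part of these markers in the results was not tested.

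The promoters of 3 members are shown because these genes changed in both cell lines, MDH2 and IDH3B with a match to a searched motif and SUCLA2 in the direction opposite to them in MHCC97H. The sequences are RefSeq windows of 300 bases (GRCh38.p14), read 5′ to 3′ on the gene's strand, most of each lying before the gene's start. They cover chr7:76047856-76048155 on the plus strand for MDH2, chr20:2664167-2664466 on the minus strand for IDH3B and chr13:48001224-48001523 on the minus strand for SUCLA2. Capitals mark CCGGAAGT, the motif of GABPA, an ETS factor of nuclear genes for mitochondrial proteins.
MDH2: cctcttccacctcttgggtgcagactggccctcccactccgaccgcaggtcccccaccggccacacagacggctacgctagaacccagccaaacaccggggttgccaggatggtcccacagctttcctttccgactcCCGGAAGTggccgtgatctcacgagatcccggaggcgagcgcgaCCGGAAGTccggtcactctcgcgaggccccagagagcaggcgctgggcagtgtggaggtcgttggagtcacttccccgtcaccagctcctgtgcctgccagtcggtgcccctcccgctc
IDH3B: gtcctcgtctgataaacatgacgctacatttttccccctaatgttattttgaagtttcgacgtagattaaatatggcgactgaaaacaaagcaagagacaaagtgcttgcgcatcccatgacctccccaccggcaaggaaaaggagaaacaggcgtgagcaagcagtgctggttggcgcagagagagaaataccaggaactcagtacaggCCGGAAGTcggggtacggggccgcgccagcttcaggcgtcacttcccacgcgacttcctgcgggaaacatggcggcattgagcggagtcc
SUCLA2: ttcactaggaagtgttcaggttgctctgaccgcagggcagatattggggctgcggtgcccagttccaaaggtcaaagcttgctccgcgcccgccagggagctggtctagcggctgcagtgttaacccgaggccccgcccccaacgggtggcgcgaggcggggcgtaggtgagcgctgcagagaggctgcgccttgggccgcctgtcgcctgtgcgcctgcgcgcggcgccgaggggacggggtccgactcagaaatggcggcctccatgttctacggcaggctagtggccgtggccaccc

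A window was found for 8 of the 9 members, all but OGDH, and both strands were searched for 4 motifs. The GABPA motif lay in 2 of the 8 windows, at 2 places in MDH2 and 1 in IDH3B, against 4.14% of 35116 windows of the same length. GCATGCGC, the motif of NRF1, another regulator of mitochondrial genes, lay in 1 of 8, that of SDHB, against 3.05%. The EGR1 motif GCGNGGGCG lay in 0 of 8 against 9.43%, and TCAAGGTCA, the motif of the oestrogen-related receptor ESRRA, in 0 of 8 against 0.353%. No window held matches to more than 1 of the 4 motifs. These are matches of letters and not sites of binding, and the missing ones say only that these letters are not in these windows. The window of IDH2 lay a median of 1856 bases from the starts of its coding transcripts, and no coding transcript of SDHB started within 100 bases of its window's start site, so these 2 windows may miss the promoter in use.

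MDH2 had the highest mRNA level of the 9 genes and SUCLA2 the lowest in each of the 4 groups, and CS was the next highest after MDH2. Each value is an average over a culture, so fewer expressing cells and less RNA per cell cannot be told apart. MDH2, the malate dehydrogenase that closes the cycle, was at 137 ± 3.88 FPKM in vector, 113 ± 3.02 in EGR1, 129 ± 8.64 in parental and 180 ± 18.8 in the libraries labelled knockout (SD, n = 3 each). SUCLA2 was at 10.8 ± 3.87, 19.1 ± 0.192, 9.80 ± 1.86 and 4.75 ± 0.754 FPKM in the same order. Between these ends the order differed between the lines. IDH2 stood at rank 3 in vector, level with CS above it and SDHB below it within the spread of the libraries, and at rank 7 in parental MHCC97H, where its libraries overlapped those of IDH3A. Other neighbours whose libraries overlapped were FH and IDH3B in vector, CS and SDHB, SDHB and IDH3B, and IDH2 and OGDH in EGR1, FH and SDHB in parental, and SDHB and FH as well as OGDH and IDH3A in the libraries labelled knockout.

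Over the 12 libraries the genes fell into those with a wide range and those with a narrow one. The highest FPKM exceeded the lowest 5.03-fold for IDH2, 4.69-fold for SUCLA2, 3.78-fold for IDH3B and 2.72-fold for OGDH. The corresponding ratio was 1.82 for MDH2, 1.65 for SDHB, 1.38 for CS, 1.34 for FH and 1.32 for IDH3A. The plot of FPKM by library shows both kinds of gene.

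**Figure D1:**
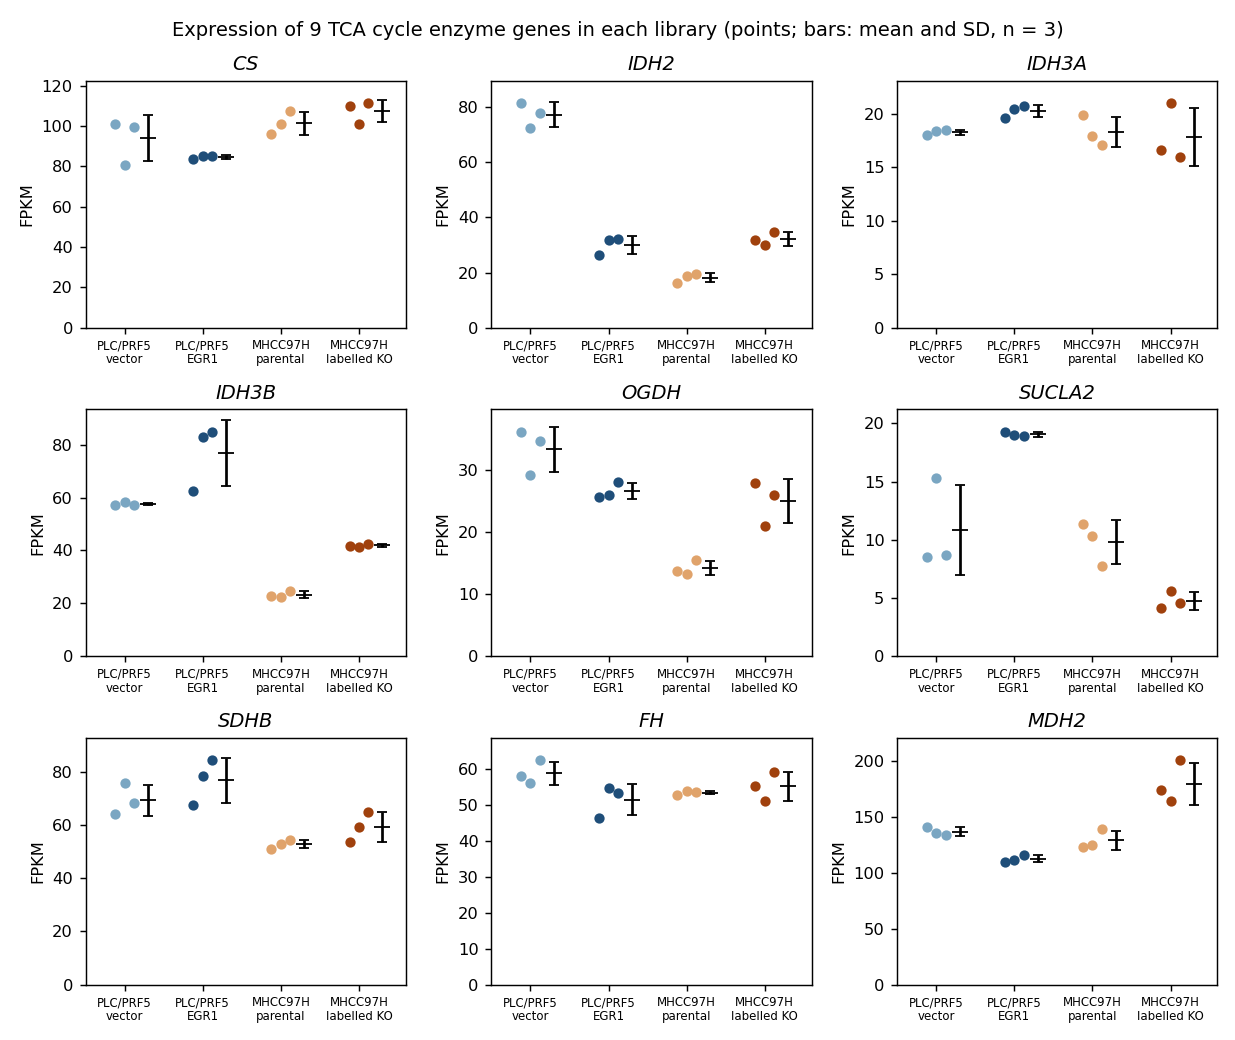
FPKM (y axes, from 0) of the 9 genes in each of 12 libraries. Points are libraries of the 4 groups on the x axes and the black bar beside them is the mean and SD (n = 3). IDH2 lies between 72.3 and 81.3 FPKM in vector and at or below 34.9 in the other 3 groups, while IDH3A lies between 15.9 and 21.0 FPKM in all 12 libraries.

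The comparison of EGR1 with vector in PLC/PRF5 asked which genes differed when EGR1 was overexpressed. IDH2, the NADP-dependent isocitrate dehydrogenase of the matrix, showed the largest change of the 9, a fall of 2.52-fold, and SUCLA2 and IDH3B rose while OGDH and MDH2 fell by less. By limma, 5 of 9 genes passed an adjusted p of 0.05, 2 higher and 3 lower, where 29.6% of the 11671 genes tested passed, 19.2% higher and 10.4% lower. The libraries of both groups did not overlap for 7 of 9 genes, against 47.7% of all genes tested. The median log2 change of the members was -0.14 and that of all genes tested was 0.09. Fold changes here are on the log2(FPKM + 1) scale, which understates the change of low genes such as SUCLA2.

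IDH2 mRNA was at 81.3, 72.3 and 78.0 FPKM in vector and at 26.4, 31.9 and 32.2 FPKM in EGR1 cells. Every EGR1 library was thus far below every vector library (log2 change -1.33 ± 0.10 SE, adjusted p = 8.58e-05). IDH2 spans positions 90083045 to 90102504 of chromosome 15 on the minus strand (GRCh38, GENCODE release 29), and no other annotated gene overlaps it. Its call held under each of 15 alternatives, with log2 changes from -1.38 to -1.24.

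SUCLA2, the ADP-forming beta subunit of succinyl-CoA ligase, which makes ATP at the substrate level, was at 8.50, 15.3 and 8.70 FPKM in vector and at 19.3, 19.0 and 18.9 FPKM in EGR1 cells. The EGR1 libraries lay close together and above the vector libraries, of which replicate 2 stood well above the other two (log2 change 0.81 ± 0.19 SE, adjusted p = 0.0131). Without vector replicate 2 the log2 change was 1.06. Without vector replicate 3 the log2 change was 0.69 and the adjusted p 0.0523, above the threshold. The annotation places 3 genes on the same strand and 3 on the opposite strand within the SUCLA2 locus (chromosome 13, 47745736 to 48037968, minus strand). Whether the counting used strand is not stated, so reads of overlapping genes cannot be told apart from its own. The same holds for CS and IDH3A, which overlap 2 and 3 other genes. SUCLA2 and FH also have named pseudogenes, 3 and 1, and how reads shared with these copies were assigned is not stated.

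IDH3B, the beta subunit of the NAD-dependent isocitrate dehydrogenase, was at 57.4, 58.1 and 57.3 FPKM in vector and at 62.3, 82.9 and 84.8 FPKM in EGR1 cells. The vector libraries were nearly level, and EGR1 replicate 1 was much closer to them than the other EGR1 libraries were (log2 change 0.39 ± 0.12 SE, adjusted p = 0.0376). OGDH, the dehydrogenase subunit of the 2-oxoglutarate dehydrogenase complex, was at 36.1, 29.2 and 34.6 FPKM in vector and at 25.6, 25.9 and 28.0 FPKM in EGR1 cells, with vector replicate 2 close to the EGR1 libraries (log2 change -0.31 ± 0.10 SE, adjusted p = 0.0438). MDH2 was at 141.0, 135.7 and 133.5 FPKM in vector and at 110.1, 111.9 and 116.0 FPKM in EGR1 cells, 2 groups that did not overlap (log2 change -0.28 ± 0.08 SE, adjusted p = 0.0302). These 3 calls were near the threshold. That of OGDH held under 6 of 15 alternatives and those of IDH3B and MDH2 under 9 of 15 each, and leaving out vector replicate 3 left only IDH2 called. Leaving out vector replicate 1, EGR1 replicate 2 or EGR1 replicate 3 left 2 genes called each time. With a block for the replicate number, the adjusted p was 0.0530 for OGDH and 0.0719 for MDH2.

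The other 4 genes did not pass the test in PLC/PRF5. CS, which starts the cycle, was at 80.9 to 101.2 FPKM in vector and 83.5 to 85.4 FPKM in EGR1 cells (95% interval of the log2 change -0.37 to 0.09). IDH3A, the catalytic alpha subunit of the NAD-dependent enzyme, was at 18.0 to 18.5 and 19.6 to 20.7 FPKM, groups that did not overlap but differed little (0.14, interval -0.04 to 0.32). SDHB, the iron-sulfur subunit of succinate dehydrogenase, which is also complex II of the respiratory chain, was at 64.3 to 75.8 and 67.7 to 84.4 FPKM (0.14, interval -0.10 to 0.39). FH, the fumarase, was at 56.0 to 62.4 and 46.4 to 54.6 FPKM, lower in every EGR1 library (-0.19, interval -0.40 to 0.02, adjusted p = 0.148). Without vector replicate 2, which held the lowest CS level of its group, CS passed the test (log2 change -0.24, adjusted p = 0.0458).

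The comparison within MHCC97H asked how the libraries labelled knockout differed from the parental cells. Single clones grown after lentivirus infection were the knockout lines, so clone, virus and knockout cannot be told apart in it. IDH3B, IDH2, OGDH and MDH2 were higher in the libraries labelled knockout, by 1.77-fold, 1.73-fold, 1.70-fold and 1.39-fold, and SUCLA2 was lower by 1.87-fold. Thus 5 of 9 genes passed, 4 higher and 1 lower, in a comparison where 66.3% of the 11577 genes tested passed, 34.8% higher and 31.5% lower. The same 5 genes had groups that did not overlap, against 71.8% of all genes tested. The median log2 change of the members was 0.16, beside 0.02 over all genes tested. The members' share of calls, 55.6%, was thus near that of all genes and is no result about the cycle as a group.

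IDH3B was at 22.7, 22.5 and 24.7 FPKM in parental cells and at 41.6, 41.4 and 42.5 FPKM in the libraries labelled knockout. Both groups were tight and far apart (log2 change 0.82 ± 0.08 SE, adjusted p = 6.59e-05). IDH2 was at 16.2, 18.8 and 19.6 FPKM in parental cells and at 31.7, 30.0 and 34.9 FPKM in the libraries labelled knockout, again with no overlap (log2 change 0.79 ± 0.10 SE, adjusted p = 2.27e-04). In these libraries IDH2 remained below the lowest vector level of PLC/PRF5, 72.3 FPKM.

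OGDH was at 13.8, 13.3 and 15.5 FPKM in parental cells and at 27.9, 21.0 and 26.0 FPKM in the libraries labelled knockout, of which replicate 2 was the lowest (log2 change 0.77 ± 0.12 SE, adjusted p = 5.94e-04). MDH2 was at 123.4, 124.8 and 139.0 FPKM and at 174.0, 164.3 and 200.6 FPKM, so that every library labelled knockout was above every parental one (log2 change 0.47 ± 0.10 SE, adjusted p = 0.00289). SUCLA2 was at 11.3, 10.3 and 7.73 FPKM in parental cells and at 4.11, 5.58 and 4.57 FPKM in the libraries labelled knockout, the lowest SUCLA2 levels of the series (log2 change -0.90 ± 0.15 SE, adjusted p = 8.88e-04). MDH2 spans positions 76048051 to 76067508 and OGDH positions 44606572 to 44709066 of chromosome 7, both on its plus strand, and IDH3B spans positions 2658395 to 2664219 of chromosome 20 on the minus strand, each with no overlapping gene.

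CS, IDH3A, SDHB and FH did not pass in MHCC97H either. CS was at 96.2 to 107.4 FPKM in parental cells and 101.3 to 111.3 FPKM in the libraries labelled knockout (95% interval of the log2 change -0.11 to 0.27). IDH3A was at 17.1 to 19.9 and 15.9 to 21.0 FPKM (interval -0.31 to 0.22), SDHB at 51.1 to 54.4 and 53.7 to 65.0 FPKM (-0.05 to 0.37), and FH at 52.9 to 53.7 and 51.0 to 59.1 FPKM (-0.15 to 0.23). For these 4 genes the groups overlapped. The sign of these 4 small changes depended on the processing. That for CS and FH turned with quantile normalization, where they were lower in the libraries labelled knockout by 0.25 and 0.20 on the log2 scale.

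Another 8 subunit genes of the cycle were described in the same way, and the plot in the order of the steps shows them beside the members. Their changes are as deposited, without the GC and length correction described below. In PLC/PRF5, 2 rose, 1 fell and 5 did not pass, a share of calls of 37.5% beside 29.6% of all genes tested. The risers were DLD, the lipoamide dehydrogenase shared by the 2-oxoglutarate and pyruvate dehydrogenase complexes (log2 change 0.53), and SDHD, a membrane anchor of succinate dehydrogenase (0.45), while SUCLG2, the GDP-forming beta subunit of succinyl-CoA ligase, fell by 0.41. In MHCC97H, 4 rose, 1 fell and 3 did not pass, a share of 62.5% that was near the 66.3% of all genes tested. SDHA, the flavoprotein subunit of succinate dehydrogenase, rose most, from 31.1 to 38.4 FPKM in parental cells to 63.7 to 75.4 FPKM in the libraries labelled knockout (log2 change 0.95 ± 0.10 SE, adjusted p = 1.04e-04). IDH3G, the gamma subunit of the NAD-dependent isocitrate dehydrogenase, DLST, the succinyltransferase of the 2-oxoglutarate dehydrogenase complex, and SDHC, the other membrane anchor, rose by 0.48, 0.47 and 0.24, and DLD fell by 0.68. SUCLG1, the alpha subunit common to both succinyl-CoA ligases, passed in neither comparison (log2 changes 0.17 and 0.11).

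**Figure D2:**
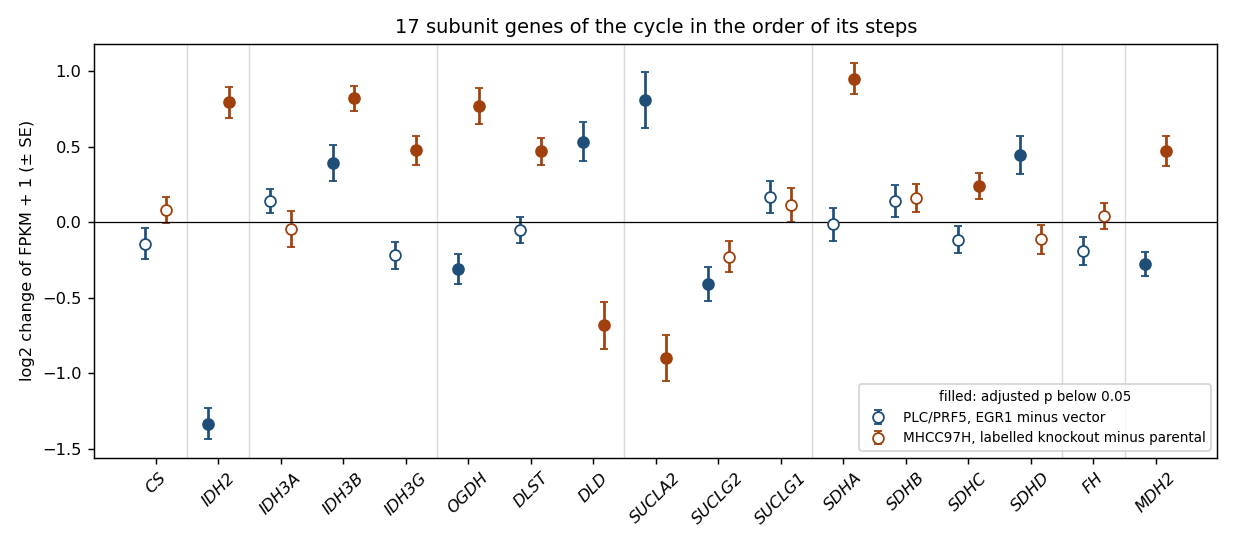
Log2 change of FPKM + 1 (y axis, ± SE) of the 9 members and 8 other subunit genes in the order of the steps (x axis, grey lines between steps), in PLC/PRF5 (blue) and MHCC97H (brown), 3 libraries a group; filled points passed an adjusted p of 0.05. IDH2, OGDH and MDH2 are filled below 0 in blue and above 0 in brown, SUCLA2 and DLD the reverse, and IDH3B is filled above 0 in both.

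In none of the complexes that follow did all subunits pass in one direction in the libraries labelled knockout. Of the 3 subunits of the NAD-dependent isocitrate dehydrogenase, IDH3B and IDH3G rose. IDH3A did not pass, at a log2 change of -0.04, or 0.24 with the GC and length correction described below. Of the 3 subunits of the 2-oxoglutarate dehydrogenase complex, OGDH and DLST rose and DLD fell, the only calls in opposite directions. Of the 4 subunits of succinate dehydrogenase, SDHA and SDHC rose. SDHB had a log2 change of 0.16 and SDHD one of -0.11, and neither passed.

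Ratios of FPKM within a library do not depend on how the libraries are scaled, and 6 ratios were compared in 3 comparisons, 18 in all. The log2 differences and tests used FPKM + 1 and are not wholly free of that scaling, least so for low genes such as SUCLA2. With 3 libraries against 3 a 2-sided exact permutation test cannot go below p = 0.1, which 17 of the 18 reached, and none can pass 0.05 (adjusted 0.106 by exact permutation). Reaching it means only that the groups did not overlap. Groups did not overlap for 47.7%, 71.8% and 81.0% of single genes tested in PLC/PRF5, in MHCC97H and between the controls. The share for other pairs of genes was not computed, so the count is no result about these enzymes. SUCLA2 per SUCLG2, the ATP-forming against the GTP-forming ligase, was 0.331, 0.452 and 0.268 in vector and 0.844, 0.809 and 0.866 in EGR1 cells, and 0.238, 0.238 and 0.206 in parental cells and 0.109, 0.154 and 0.131 in the libraries labelled knockout. It was higher in every EGR1 library and lower in every library labelled knockout than in their controls (log2 differences of FPKM + 1, 1.22 and -0.67). IDH2 per IDH1, the matrix against the cytosolic NADP-dependent enzyme, was 0.668, 0.493 and 0.578 in vector, 0.193, 0.242 and 0.238 in EGR1, 0.159, 0.184 and 0.218 in parental and 0.337, 0.345 and 0.409 in the libraries labelled knockout. The log2 differences were -1.34 and 0.93, and IDH1 passed the test in neither comparison.

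IDH3A per IDH2, the NAD-dependent against the NADP-dependent enzyme of the matrix, was 0.222 to 0.255 in vector, 0.642 to 0.744 in EGR1, 0.875 to 1.23 in parental and 0.457 to 0.699 in the libraries labelled knockout (log2 differences 1.47 and -0.84). MDH2 per MDH1, the matrix against the cytosolic malate dehydrogenase, was 0.932 to 1.11, 0.809 to 0.844, 1.25 to 1.68 and 2.18 to 2.67 in the same order (-0.25 and 0.67). MDH1 mRNA was therefore above that of MDH2 in all EGR1 libraries and below it in all MHCC97H libraries. The log2 difference of IDH3A per IDH3B was -0.25 in PLC/PRF5 and -0.86 in MHCC97H, and that of FH per SDHB was -0.33 and -0.12. The groups overlapped for FH per SDHB in MHCC97H (exact permutation p = 0.3). Ratios were not corrected for the GC content of the transcripts, which was 43.7% for IDH3A, 55.9% for IDH2 and 54.6% for IDH3B. With the GC and length correction described below, the log2 changes of these genes in MHCC97H were 0.24, 0.37 and 0.34. The ratios with IDH3A in MHCC97H are therefore not free of the GC trend. The correction also moved MDH2 from 0.47 to 0.17 and SUCLA2 from -0.90 to -0.59 there. No corrected values were computed for IDH1, MDH1 and SUCLG2, so the ratios with these genes may hold the GC trend as well.

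A test of the difference between both changes, fitted over all 12 libraries, asked which genes changed unlike in the 2 lines. It was past the threshold for 5 of 9 genes, against 63.8% of the 12090 genes tested. The change in MHCC97H exceeded that in PLC/PRF5 by 2.13 ± 0.14 (SE) on the log2 scale for IDH2 (adjusted p = 5.71e-07), by 1.08 ± 0.16 for OGDH, by 0.75 ± 0.12 for MDH2 and by 0.43 ± 0.14 for IDH3B. For SUCLA2 it was lower by 1.71 ± 0.27 (adjusted p = 1.79e-04). IDH3B differed in kind, since it rose in both lines and more in MHCC97H. The 95% intervals of the difference were -0.05 to 0.50 for CS, -0.48 to 0.12 for IDH3A, -0.29 to 0.32 for SDHB and -0.02 to 0.49 for FH. The 2 manipulations were made in different lines by different methods, so line and manipulation cannot be told apart in this difference.

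Transcript GC content moved with these changes. Over all genes tested in MHCC97H the median log2 change went from -0.75 in the lowest of 20 bins of GC content to 0.75 in the highest, and in PLC/PRF5 from 0.45 to -0.18. GC content and length together accounted for 54.3% of the variance of the log2 changes in MHCC97H and 18.5% in PLC/PRF5. Among the members, OGDH, IDH2, IDH3B and MDH2 had the highest GC content, 56.3%, 55.9%, 54.6% and 52.3%, and were the 4 that rose in MHCC97H. SUCLA2, which fell there, had the lowest, 42.0%. CS had 49.0%, SDHB 48.6%, IDH3A 43.7% and FH 43.7%, around or below the median of 48.7% over all genes tested.

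**Figure D3:**
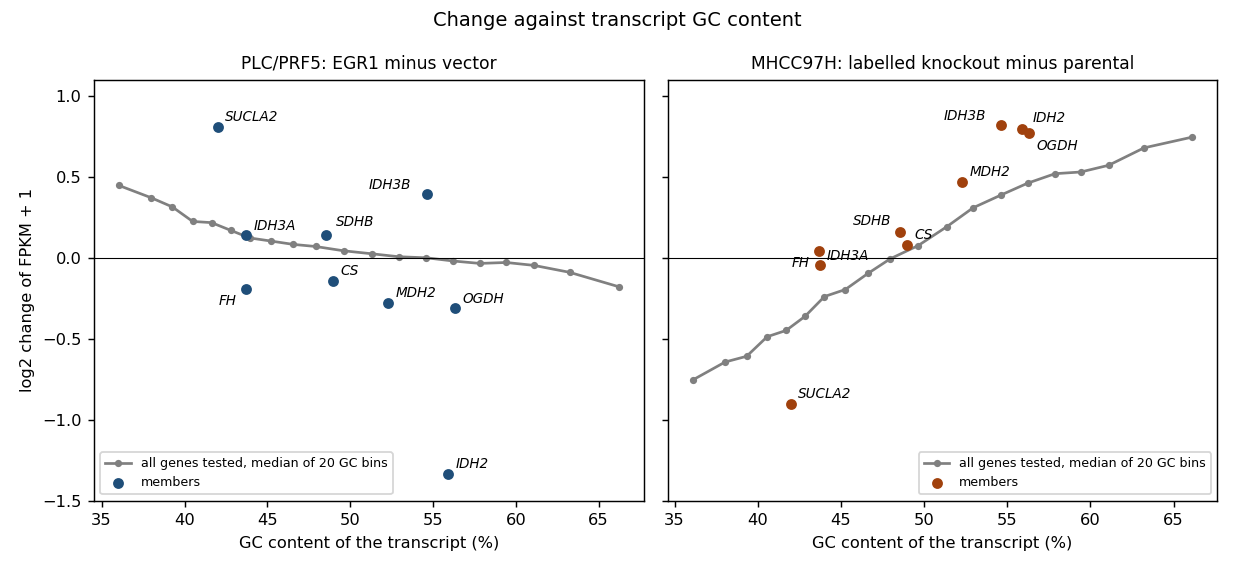
Log2 change of FPKM + 1 (y axis) against GC content of the transcript (x axis, %) in PLC/PRF5 and MHCC97H. Coloured points are the 9 members and grey points are medians of all genes tested in 20 bins of GC content; in MHCC97H the members that rose lie on the right and SUCLA2 on the left, and in PLC/PRF5 IDH2 lies at -1.33 where the medians are close to 0.

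The fits were repeated after spline trends on GC content and length were removed from each library. In PLC/PRF5 the log2 change was -1.31 for IDH2, 0.65 for SUCLA2, 0.44 for IDH3B, -0.30 for OGDH and -0.25 for MDH2, all still called, and FH passed as well (-0.29, adjusted p = 0.0418), but not with the replicate block added (adjusted p = 0.0534). In MHCC97H the changes shrank to 0.37 for IDH2 (adjusted p = 0.00220), 0.34 for IDH3B (0.00155), 0.38 for OGDH (0.00778) and -0.59 for SUCLA2 (0.00258). MDH2 lost its call there (0.17, adjusted p = 0.0563) and kept it with the replicate block added (adjusted p = 0.0366). In the difference between both changes, IDH3B went from 0.43 to -0.07 (adjusted p = 0.531), and IDH2, OGDH, MDH2 and SUCLA2 stayed past the threshold at 1.70, 0.70, 0.44 and -1.25, while FH passed it at 0.47 (adjusted p = 0.00929). The removal takes out any change that follows GC content, whatever its source, and the part of GC content in the deposited changes was not tested further.

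**Figure D4:**
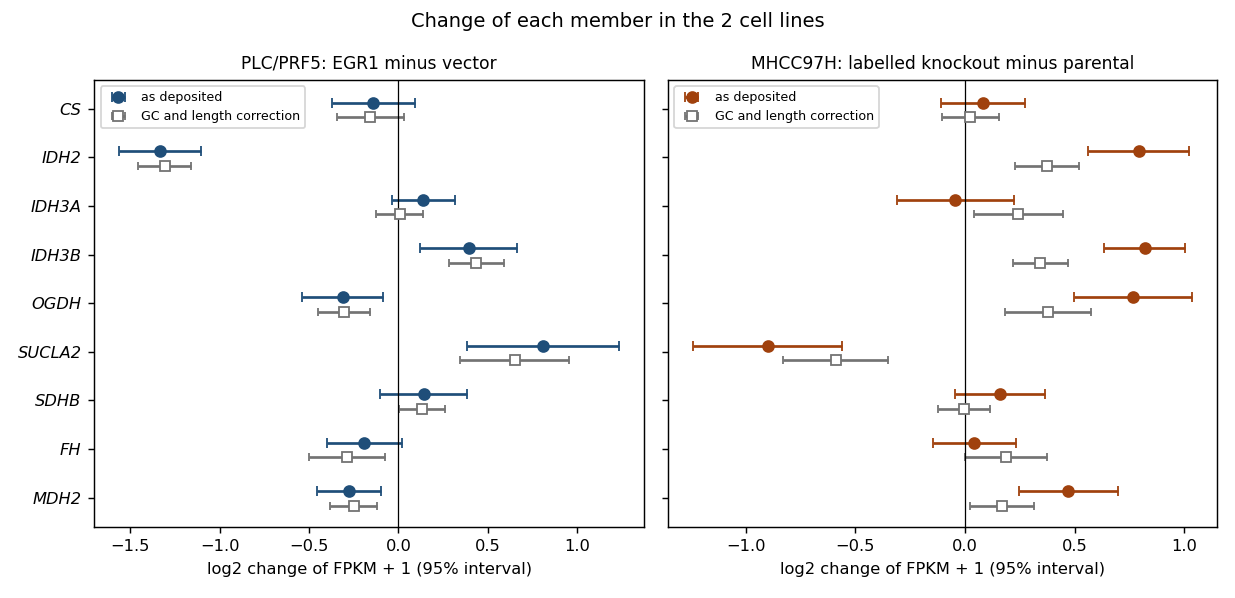
Log2 change of FPKM + 1 (x axis, with 95% interval) of the 9 genes (y axis) in PLC/PRF5 and MHCC97H, as deposited (filled circles) and after removal of GC and length trends (open squares). The values for IDH2 in PLC/PRF5 nearly coincide at -1.33 and -1.31, while in MHCC97H those of IDH2, IDH3B and OGDH move from 0.79, 0.82 and 0.77 to 0.37, 0.34 and 0.38.

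The controls of the lines were also compared. These libraries are the same as the controls of the comparisons above, and vector cells carry a lentivirus that parental cells lack. Parental MHCC97H had lower IDH2, IDH3B, OGDH and SDHB than PLC/PRF5 vector cells, by 4.09-fold, 2.41-fold, 2.26-fold and 1.30-fold (adjusted p = 1.38e-07, 6.02e-07, 9.95e-06 and 0.00248, limma). Hence 0 of 9 were called higher and 4 lower, where 79.8% of 12046 genes tested passed, 38.8% higher and 40.9% lower. At an unadjusted p under 0.05, 0 were higher and 4 lower as well. The groups did not overlap for 5 of 9 genes, against 81.0% of all, and the median log2 change was -0.13 beside -0.02 for all genes tested. The 95% interval of the log2 change was -0.20 to 0.20 for IDH3A, -0.12 to 0.35 for CS, -0.30 to 0.03 for FH, -0.26 to 0.09 for MDH2 and -0.60 to 0.40 for SUCLA2. After the removal of GC and length trends SDHB turned to 0.02 (adjusted p = 0.680) and MDH2 from -0.08 to 0.28 (adjusted p = 6.09e-04), and IDH3A passed at -0.29 (adjusted p = 0.00110).

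For each member the genes with the most similar profile over the 12 libraries were sought among 5809 genes with a mean of at least 10 FPKM, by the root mean square difference of centred log2(FPKM + 1). The closest were PPP2R1A (0.040) and SUN2 (0.069) for MDH2, SLC35E2B (0.045) and ATP2A2 (0.064) for CS, CHMP3 (0.057) and HSPA8 (0.060) for FH, and ATP6V0E1 (0.059) and SLC25A26 (0.075) for SDHB. TMEM104 (0.094) was among the closest to OGDH. TRIP4 (0.072) and UBR7 (0.093) were closest to IDH3A, DVL1 (0.090) and ZWINT (0.094) to IDH3B, SLC29A4 (0.117) and SERINC2 (0.203) to IDH2, and MRPL1 (0.130) and YAE1 (0.139) to SUCLA2. The nearest fellow member ranked between 136 and 1299, so each gene had many genes outside the cycle that followed its levels more closely than any other member did. The libraries of 4 groups set these profiles, and likeness here means likeness of levels alone.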

How the data were processed

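RNA-seq libraries (oligo(dT) selection, duplex-specific nuclease treatment) were made from 12 samples. The authors deposited FPKM for each library in 1 table. The submitters' processing notes name StringTie and hg38, while the aligner and the annotation are not given in the sources used here. Groups came from the sample labels and every column was used. Low values showed no whole-read steps, so the depth is unknown and no interval or floor from counting was given.

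Values were fitted as log2(FPKM + 1) with limma 3.58.1 (R 4.3.3, intensity trend) over genes with a mean of at least 1 FPKM, each comparison on its own 6 libraries and the difference between lines on all 12. Tests were 2-sided with Benjamini-Hochberg adjustment over all genes tested and a threshold of 0.05. Ratios were tested by exact permutation. Of 22963 gene names 84.7% matched GENCODE release 29, and 92.8% to 93.3% of the genes tested had a GC content. The trends removed were splines with 5 degrees of freedom. Promoter windows came from RefSeq.

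The members and lists were chosen with earlier results of these data known. All members and 8 other cycle subunits are named, and of each neighbouring list the genes called in both manipulations and the largest called rise and fall in each. For each member the 2 most similar profiles are named. The alternatives were quantile normalization, scaling to a common total, adding 0.1 in place of 1, keeping every gene detected in any library, a fit without the trend, a joint fit of all 12 libraries, a block for the replicate number, the GC and length correction with and without the block, and leaving out each library. Some genes of the lists, 1 ratio and 1 similar profile are not reported here. The fits were tested on simulated data. Tables and plots used Python 3.11.15 with pandas 2.3.3 and matplotlib 3.10.9.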

Additional observations from a re-analysis of the deposited data

Results flagged for a closer look

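The changes of 5 of 9 genes differed between the cell lines by limma's interaction term over 12 libraries. Of all 12090 genes tested 63.8% passed the same test, so the count is no result about the cycle as a group. The change in MHCC97H (libraries labelled knockout minus parental) minus the change in PLC/PRF5 (EGR1 minus vector) was 2.13 for IDH2, 1.08 for OGDH, 0.75 for MDH2 and 0.43 for IDH3B, all on the log2 scale, and -1.71 for SUCLA2. IDH2, OGDH and MDH2 fell with EGR1 overexpression and were higher in the libraries labelled knockout, and SUCLA2 did the reverse, while EGR1 mRNA was higher in the second group of both comparisons (log2 changes 4.27 and 0.83). IDH3B rose in both lines. The values of IDH2, OGDH, MDH2 and SUCLA2 stayed past the threshold under each of 20 alternatives, and that of IDH3B under 17 of 20.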

How the results depend on the processing

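In PLC/PRF5 the count of 5 genes called went to 2 when every gene detected in any library was tested, where the share of all genes called also fell, from 29.6% to 15.1%, and to 3 with the replicate block. It ranged from 1 to 5 when 1 library was left out, with 1 without vector replicate 3 and 2 without vector replicate 1, EGR1 replicate 2 or EGR1 replicate 3. In MHCC97H the median log2 change of the members, 0.16, went to 0.0083 with a common total and -0.089 with quantile normalization, and from 0.093 to 0.23 with 1 library left out. Between the controls the median, -0.13, went to -0.026 with a common total and to -0.26 with the GC and length correction, with or without the block, and from -0.23 to -0.14 with 1 library left out. The common total moved the median over all genes in MHCC97H from 0.02 to -0.11. Several log2 changes turned in sign, most of them small ones that did not pass the test. A common total turned CS (-0.070) and FH (-0.11) in MHCC97H, IDH3A (0.10), SUCLA2 (0.0013) and MDH2 (0.025) between the controls and SDHB (-0.11) in the difference between lines. Quantile normalization turned CS (-0.25), FH (-0.20) and SDHB (-0.089) in MHCC97H, IDH3A (0.076), FH (0.11) and MDH2 (0.22) between the controls and SDHB (-0.27) and CS (-0.15) in the difference. The GC and length correction, with or without the block, turned IDH3A (0.24) and SDHB (-0.0062) in MHCC97H, SDHB (0.022) and MDH2 (0.28) between the controls and IDH3A (0.22), SDHB (-0.13) and IDH3B (-0.067) in the difference. With 1 library left out, signs turned for IDH3A (-0.16 to 0.029) and FH (-0.0078 to 0.096) in MHCC97H, IDH3A (-0.057 to 0.045) and SUCLA2 (-0.23 to 0.15) between the controls and SDHB (-0.071 to 0.086) in the difference. The cause was not tested. Same-numbered libraries deviated little alike, except replicate 3 in MHCC97H (correlations of same-numbered deviations -0.13, 0.14 and -0.08 in PLC/PRF5 and 0.03, 0.03 and 0.47 in MHCC97H). The block alone ended the calls of OGDH and MDH2 in PLC/PRF5, and added to the GC and length correction it ended that of FH in PLC/PRF5 and gave calls to MDH2 in MHCC97H (adjusted p = 0.0366, limma) and SUCLA2 between the controls (0.0470). Of 585 single-gene values under alternatives, 507 kept direction and side of the threshold. Ratios were tried only with 0.1 added in place of 1 and with each library left out. Of these 126 ratio values 125 moved by less than 1 SD, and no ratio was tried with the GC and length correction. The unknown depth limits how far SUCLA2, the lowest gene, can be read.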

Other observations

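Genes beside the cycle were described by the same fits, and all changes in this section are as deposited. The GC and length correction was read for the 9 members alone. GC content and length accounted for 54.3% of the variance of the log2 changes in MHCC97H and 18.5% in PLC/PRF5. How far the changes of these genes follow that trend was not tested. The counts called in each list stand beside the shares of all genes tested. These were 29.6% in PLC/PRF5 (19.2% higher, 10.4% lower) and 66.3% in MHCC97H (34.8% higher, 31.5% lower). The mitochondrial citrate carrier SLC25A1 fell with EGR1 overexpression, from 94.4 to 103.8 FPKM in vector to 61.9 to 68.5 FPKM (log2 change -0.60), and was higher in the libraries labelled knockout, at 101.8 to 123.5 FPKM against 43.8 to 55.5 FPKM in parental cells (1.15). It was the largest called change among 6 genes of the cytosolic counterparts and citrate use in both comparisons, where 0 rose (0 at an unadjusted p under 0.05 by limma) and 1 fell in PLC/PRF5 and 2 rose and 1 fell in MHCC97H, ME1, the cytosolic malic enzyme, falling by 0.69. Among genes that feed or drain the cycle, the carrier SLC25A11 fell with EGR1 (-0.36) and was higher in the libraries labelled knockout (0.87), and PC, pyruvate carboxylase, was higher in both (0.45 and 0.55). Of this list, 1 rose and 1 fell of 7 tested in PLC/PRF5 and 3 rose and 3 fell of 8 in MHCC97H, where SLC25A11 rose and GLUD1, glutamate dehydrogenase, fell the most (-0.75). Of 6 genes of pyruvate entry, 1 rose in PLC/PRF5, PDHX (0.45), a subunit of the pyruvate dehydrogenase complex, and in MHCC97H 3 rose and 1 fell, MPC2, a subunit of the mitochondrial pyruvate carrier, by the most (1.12) and PDHX being lower (-0.49).

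Of 8 genes of succinate dehydrogenase assembly and iron-sulfur cluster formation, SDHAF4 fell in PLC/PRF5 (-0.70), and SDHAF1 rose (0.61) and SDHAF3 fell (-0.49) in MHCC97H. Of 9 regulators of mitochondrial biogenesis tested in PLC/PRF5, 4 rose and 0 fell (0 at an unadjusted p under 0.05 by limma as well): GABPA (0.57), TFAM (0.57), TFB2M (0.41) and ESRRA (0.33). Of 8 tested in MHCC97H, GABPA (-0.96), TFAM (-0.69) and TFB2M (-0.54) were lower and ESRRA was higher (0.65). The mRNAs encoded by mitochondrial DNA were higher with EGR1 overexpression in 8 of 13 and lower in 0 (0 at an unadjusted p under 0.05 by limma), with MT-ND4L at 1.07, and 8 of 13 were lower and 0 higher in the libraries labelled knockout (1 higher at an unadjusted p under 0.05 by limma), with MT-ATP8 at -1.79. They held 7.32% ± 0.49, 10.1% ± 1.00, 13.4% ± 0.57 and 8.80% ± 1.79 of all FPKM in vector, EGR1, parental and the libraries labelled knockout (SD, n = 3 each). Their share of calls was 61.5% in each comparison, beside 29.6% of all genes tested in PLC/PRF5 and 66.3% in MHCC97H.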
